A study of Homo sapiens with 8 samples.

Results

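The genes described here code for the nuclear pore complex and for the soluble factors that carry proteins and RNA through it. The rule that chose them rests on gene symbols and uses no measured value, although it was written with earlier results of these data known. It takes symbols that start with NUP, IPO or XPO followed by a digit, or with KPNA, KPNB or TNPO, together with TPR, RAE1, NDC1, AAAS, RAN, RANBP1, RANBP2, RANGAP1, CSE1L, NXF1 and NXT1, leaving out symbols with a hyphen. This gave 55 of the 10105 genes of the count table. All 55 had at least 10 counts in each of the 8 libraries. The authors had already selected the genes of the table by a limit on expression level, so other genes that match the rule may be missing. IPO5P1, a transcribed processed pseudogene copied from IPO5, and NUP62CL were the only members given no place in the pore or the transport cycle.

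The counts came from HEK293T cells, a human embryonic kidney line, that were either wild-type (WT) or XRN1-null, and the labels give no treatment of either genotype. XRN1 is the cytoplasmic exonuclease that degrades decapped mRNA, and the XRN1-null line carries a small frameshift deletion that was made with Cas9 in an exon of this gene. For each genotype, mRNA abundance was measured by RNA-Seq and ribosome-protected fragments (RPF) were measured by Ribo-Seq, with 2 biological replicates of each. All XRN1-null libraries came from the edited line, so loss of XRN1 and any other difference between the lines cannot be told apart.

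Library totals were 33757487 to 38145433 counts in RNA-Seq and 1921641 to 4399542 in Ribo-Seq, and the 55 genes took 1.01% to 1.06% of the RNA-Seq counts in WT cells and 1.21% to 1.22% in XRN1-null cells. Their share of the Ribo-Seq counts was 1.15% and 1.34% in the WT replicates and 1.45% and 1.46% in the XRN1-null replicates. The XRN1 mRNA itself was at 33.5 and 33.0 CPM (counts scaled to 1000000 per library after TMM scaling within an assay) in WT cells and at 282 and 253 CPM in XRN1-null cells, whereas its RPF level was 34.4 and 49.8 CPM in WT cells and 22.6 and 18.4 CPM in XRN1-null cells. Reads outside a small deletion are counted, so the mRNA count of XRN1 does not check the genotype labels. Of 7 markers of HEK293 cells 6 had a row in the table, with a summed mRNA level of 1130 to 1465 CPM in WT cells against 1217 to 1257 CPM in XRN1-null cells. VIM made up most of this sum, with a mean of 856 CPM in WT cells against 817 CPM in XRN1-null cells. Single markers moved in opposite directions, such as NEFM (145 against 96.7 CPM) and KRT18 (59.7 against 83.5 CPM). Of the markers of blood cells, endothelial cells and hepatocytes 0 had a row, and of 3 fibroblast markers 1 did, COL1A1, at 13.9 to 15.4 CPM in WT cells against 36.8 to 37.3 CPM in XRN1-null cells. The part of this difference between the lines in the results below was not tested.

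The nuclear pore is built from nucleoporins. The Y complexes form the outer rings, the inner ring anchors the channel, the membrane nucleoporins fix the pore in the nuclear envelope, and the nucleoporins rich in phenylalanine and glycine repeats fill the channel and reach into the cytoplasmic filaments and the nuclear basket. Cargo with a classical import signal is bound by an importin alpha adaptor and carried by importin beta (KPNB1), while other importins and the exportins bind their cargo directly. The small GTPase RAN sets the direction, since RAN bound to GTP releases cargo from importins inside the nucleus and loads cargo onto exportins. Bulk mRNA leaves the nucleus by another way, carried by the heterodimer of NXF1 and NXT1 without RAN, and the cytoplasmic face of the pore removes it from its carrier.

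Promoters of 4 genes that the mRNA results turn on are shown here, as the 250 bases upstream of the start given by RefSeq on GRCh38.p14, on the strand of the gene. NXF1 and NXT1 are shown because these partners moved in opposite directions, NUP214 because it is among the largest rises, and RAN because it is the central GTPase and fell. Capitals mark matches on either strand to 7 short motifs, which were the ETS motif CCGGAA, the NRF1 motif GCATGCGC, the cyclic AMP response element (CRE) TGACGTCA, the CCAAT box, the E-box CACGTG, the GC box GGGCGG of SP and KLF factors and the YY1 motif AAGATGGCG, and in RAN the E-box and a GC box share a base. The windows are chr11:62805441-62805690 on the minus strand for NXF1, chr20:23350541-23350790 on the plus strand for NXT1, chr9:131125336-131125585 on the plus strand for NUP214 and chr12:130871816-130872065 on the plus strand for RAN.
NXF1: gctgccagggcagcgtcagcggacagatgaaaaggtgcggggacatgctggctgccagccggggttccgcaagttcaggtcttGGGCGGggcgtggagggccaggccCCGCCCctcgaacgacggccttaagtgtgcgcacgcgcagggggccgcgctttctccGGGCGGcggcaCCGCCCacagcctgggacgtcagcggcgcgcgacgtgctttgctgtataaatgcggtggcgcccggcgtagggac
NXT1: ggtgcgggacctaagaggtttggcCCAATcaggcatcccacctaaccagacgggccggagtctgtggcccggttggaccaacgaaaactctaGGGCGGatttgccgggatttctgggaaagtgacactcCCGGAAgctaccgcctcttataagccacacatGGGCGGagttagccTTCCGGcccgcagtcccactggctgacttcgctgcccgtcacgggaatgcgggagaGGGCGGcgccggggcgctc
NUP214: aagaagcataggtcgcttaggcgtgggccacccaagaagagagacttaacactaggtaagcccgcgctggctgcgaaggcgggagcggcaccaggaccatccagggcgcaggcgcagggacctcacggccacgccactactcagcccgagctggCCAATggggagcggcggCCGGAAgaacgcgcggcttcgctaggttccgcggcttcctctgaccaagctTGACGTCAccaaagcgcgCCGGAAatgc
RAN: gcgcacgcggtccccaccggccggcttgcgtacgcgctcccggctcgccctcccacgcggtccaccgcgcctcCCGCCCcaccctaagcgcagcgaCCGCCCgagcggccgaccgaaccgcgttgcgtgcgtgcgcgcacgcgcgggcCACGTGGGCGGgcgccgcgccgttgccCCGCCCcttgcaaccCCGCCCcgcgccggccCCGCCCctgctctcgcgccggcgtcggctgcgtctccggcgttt
The NXF1 window held 4 GC boxes and no other of the 7 motifs, and the NXT1 window held 2 ETS matches, 1 CCAAT box and 3 GC boxes. The NUP214 window held 2 ETS matches, 1 CRE and 1 CCAAT box, and the RAN window held 6 GC boxes and 1 E-box. Over the 48 members with a promoter in this table, 39.6% held an ETS match against 27.9% of all 7897 promoters, 43.8% a CCAAT box against 36.6%, 14.6% an E-box against 9.4% and 56.2% a GC box against 70.0%. NRF1 matches were in 8.3% against 5.4%, CRE matches in 4.2% against 3.2% and YY1 matches in 2.1% against 1.2%. An ETS match was present in 6 of the 15 promoters of genes whose mRNA was higher in XRN1-null cells and in 2 of the 6 of genes whose mRNA was lower. These counts describe letters in a window and carry no information on binding.

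The mRNA comparison asks how the abundance of each transcript differed when the exonuclease was missing. At a false discovery rate (FDR) below 0.005 in edgeR's quasi-likelihood test, 18 of the 55 mRNAs (32.7%) were higher in XRN1-null cells, where 22.9% of all genes were called higher, and 7 (12.7%) were lower, where 23.2% of all genes were called lower. The other 30 did not pass the test. DESeq2 also called KPNA2, RANGAP1, NUP107, XPO1, KPNA6, IPO11, NUP188 and NUP205 higher (26 in all, where 26.6% of all genes were) and NDC1 lower (8 in all, where 24.2% were). At an FDR below 0.05, 32 mRNAs (58.2%) were higher, where 32.8% of all genes were, and 10 (18.2%) were lower, where 34.2% were. The median log2 change (XRN1-null minus WT) over the 55 genes was 0.24, against -0.01 over all genes, and 39 of the 55 changes (70.9%) were positive, against 48.8% over all genes. Levels are shares of a library, so less RNA per cell and fewer cells with a transcript cannot be told apart. Without XRN1-null replicate 1 there were 11 rises (16.2% of all genes) and 3 falls (11% of all genes), and without WT replicate 2 there were 33 rises (33.7% of all genes) and 10 falls (33.5% of all genes), with the lone library assumed to vary like the other genotype. The rises were spread over the cytoplasmic side of the pore, the outer and inner rings, the basket, the importin alpha adaptors and the import and export receptors, while the falls included RAN and its binding protein RANBP1.

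**Figure D1:**
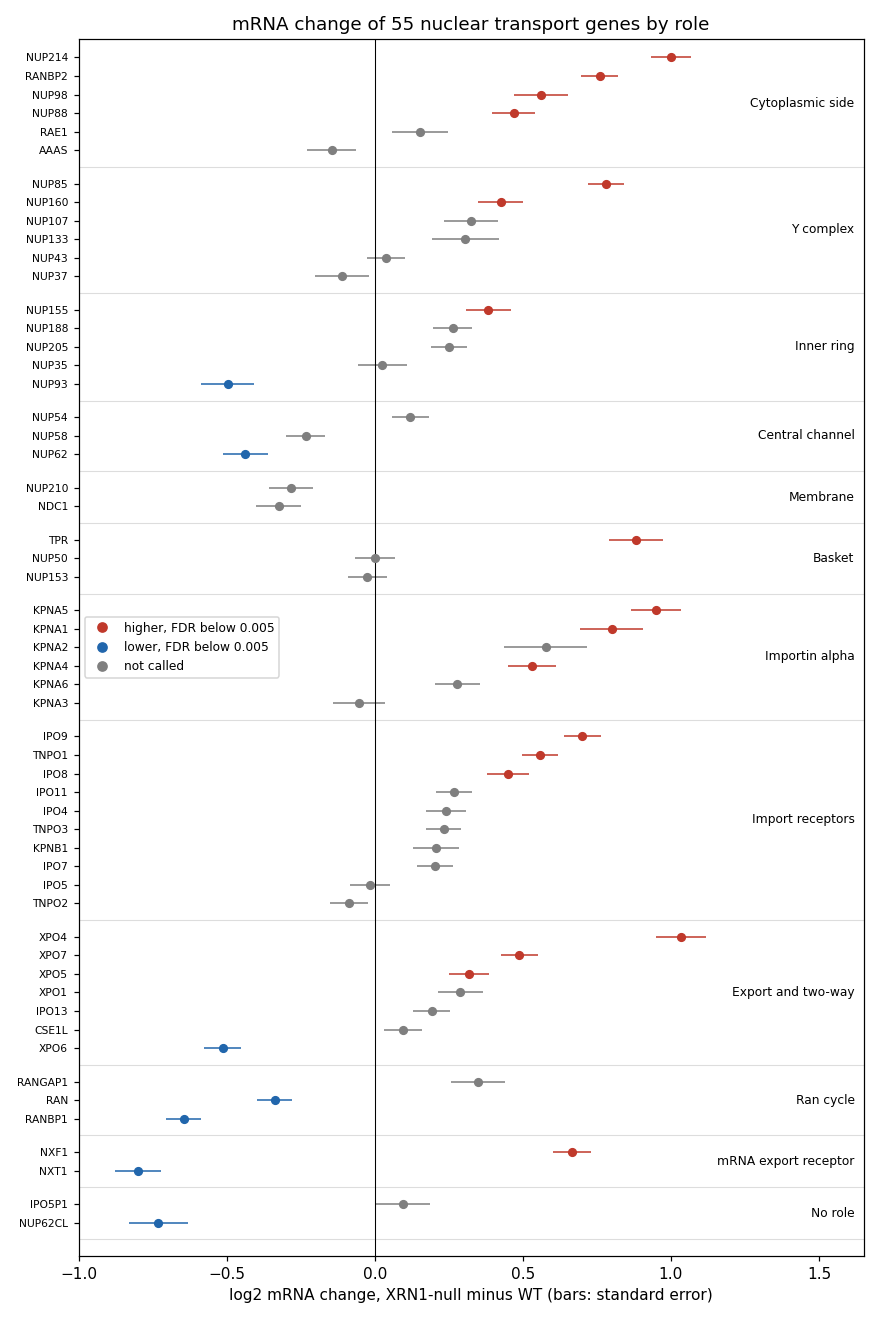
Log2 mRNA change between XRN1-null and WT cells (x axis) for each of the 55 genes, grouped by role, with bars for the standard error of the edgeR fit on 2 libraries per genotype. Genes higher at an FDR below 0.005 are red (18), genes lower are blue (7) and genes not called are grey (30), and 4 of the 6 genes of the cytoplasmic side stand among the red points.

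The cytoplasmic side of the pore, where exported mRNA is remodelled, had 4 of 6 mRNAs higher and 0 lower, against 22.9% and 23.2% of all genes. With the width correction described below, RANBP2 and NUP98 were no longer called. NUP214, which holds the helicase that strips export factors from mRNA, was at 76.0 and 81.7 CPM in WT cells against 160.1 and 155 CPM in XRN1-null cells. Both XRN1-null libraries lay well above both WT libraries, a log2 change of 1.00 ± 0.068 (SE) with an edgeR FDR of 2.27e-05. RANBP2, the large filament protein that binds RAN and ligates SUMO, was at 123 and 125 CPM in WT cells against 215 and 204 CPM in XRN1-null cells, a log2 change of 0.76 ± 0.064 (SE) with an edgeR FDR of 5.31e-05. RANBP2 has a family of near-identical partial copies in the genome, so its count is uncertain. NUP98, the docking site of the export cofactor RAE1, rose by a log2 change of 0.56, and NUP88, the partner of NUP214, rose by a log2 change of 0.47. RAE1 itself was at 63.2 and 76.0 CPM in WT cells against 74.6 and 79.9 CPM in XRN1-null cells, a log2 change of 0.15 ± 0.095 (SE) with an edgeR FDR of 0.19, and it was not called although NUP98 was. AAAS, a WD-repeat protein of this face, had the highest WT mRNA level per length of the group, 44.4 CPM per kb, and its libraries overlapped, with a log2 change of -0.15 ± 0.083 (SE).

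In the Y complex, 2 of 6 mRNAs were higher and 0 were lower, against 22.9% and 23.2% of all genes. NUP85 was at 77.9 and 78.2 CPM in WT cells against 134 and 135 CPM in XRN1-null cells, with the replicates of each genotype less than 1 CPM apart, and the change was 0.78 ± 0.061 (SE) with an edgeR FDR of 3.9e-05. NUP160 rose by a log2 change of 0.43 with an edgeR FDR of 0.00185, and was no longer called with the width correction described below (0.25, edgeR FDR 0.0325). NUP107 and NUP133, which join the stem of the same complex, had positive changes that were not called, 0.32 ± 0.091 (SE) and 0.30 ± 0.11 (SE), and NUP133 had the highest WT level of the group per deposited width, 38.4 CPM per kb, though NUP85 did per length of the reference transcript. NUP43 and NUP37, the small propeller proteins, had log2 changes of 0.038 and -0.11, or 0.0061 and 0.14 with the width correction. The subunits of this complex thus did not share a log2 change of similar size.

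The inner ring had 1 of 5 mRNAs higher and 1 lower, near the shares of all genes (22.9% and 23.2%). NUP155, which bridges the ring and the membrane, was at 117 and 133 CPM in WT cells against 166 and 159.6 CPM in XRN1-null cells, a log2 change of 0.38 ± 0.077 (SE) with an edgeR FDR of 0.00325, and was no longer called with the width correction (0.29, edgeR FDR 0.0179). NUP93, the linker that recruits the central channel nucleoporins, was at 99.6 and 118 CPM in WT cells against 74.4 and 79.5 CPM in XRN1-null cells, a log2 change of -0.50 ± 0.09 (SE) with an edgeR FDR of 0.00193. The large scaffold genes NUP205, at 46.7 CPM per kb the highest of the group in WT cells, and NUP188 had log2 changes of 0.25 and 0.26 that were not called, and NUP35 had a log2 change of 0.026. The 3 central channel genes included 0 rises and 1 fall, that of NUP62, the core of the channel trimer. NUP62 was at 134 and 151 CPM in WT cells against 103 and 107 CPM in XRN1-null cells, a log2 change of -0.44 ± 0.076 (SE) with an edgeR FDR of 0.00159, while its partners NUP58 (-0.23 ± 0.066 (SE)) and NUP54 (0.12 ± 0.063 (SE)) were not called. Exons of NUP62 lie on the same strand as exons of IL4I1 and on the other strand from exons of ATF5, so its counts may hold reads of these genes.

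Neither membrane nucleoporin was called, although all XRN1-null libraries were below all WT libraries for both. DESeq2 called NDC1 lower (FDR 0.00212), and with the width correction described below both were called lower (edgeR FDR 0.00263 for NDC1 and 0.000977 for NUP210). NDC1 was at 260.2 and 231 CPM in WT cells against 200.1 and 192 CPM in XRN1-null cells, a log2 change of -0.32 ± 0.077 (SE) with an edgeR FDR of 0.00683, and NUP210 at 345 and 308 CPM in WT cells against 273 and 263 CPM in XRN1-null cells, a log2 change of -0.28 ± 0.075 (SE) with an edgeR FDR of 0.0112. In the nuclear basket 1 of 3 mRNAs rose, against 22.9% of all genes. TPR, the long coiled-coil protein of the basket, was at 239 and 287 CPM in WT cells against 488 and 481 CPM in XRN1-null cells, a log2 change of 0.88 ± 0.09 (SE) with an edgeR FDR of 0.000128. NUP153, which anchors TPR, and NUP50, a cofactor of importin alpha release, had log2 changes of -0.025 ± 0.065 (SE) and 0.0016 ± 0.067 (SE), and neither was called (95% interval -0.21 to 0.16 for NUP153 and -0.19 to 0.19 for NUP50).

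Of the 6 importin alpha adaptors, 3 mRNAs were higher and 0 lower, against 22.9% and 23.2% of all genes, and their median log2 change was 0.55. With the width correction 1 of the 6, KPNA5, was still called, where 18.9% of all genes were higher, and the median was 0.39. The corrected value of KPNA5 rests on its deposited width of 2158 nt, where its reference transcript has 11288 nt, and its call with the longer length was not tested. With the correction KPNA1 (0.58, edgeR FDR 0.00531) and KPNA4 (0.19, edgeR FDR 0.102) were no longer called. KPNA5 was the least abundant per length (8.50 CPM per kb in WT cells), at 17.4 and 19.2 CPM in WT cells against 34.7 and 36.0 CPM in XRN1-null cells, with a fold of 1.93, a log2 change of 0.95 ± 0.083 (SE) and an edgeR FDR of 6.41e-05. KPNA1 was at 88.0 and 111 CPM in WT cells against 170.1 and 176 CPM in XRN1-null cells, a log2 change of 0.80 ± 0.11 (SE) with an edgeR FDR of 0.000435, and KPNA4 at 98.8 and 114 CPM in WT cells against 153 and 155 CPM in XRN1-null cells, a log2 change of 0.53 ± 0.081 (SE) with an edgeR FDR of 0.000868. In all 3 genes both XRN1-null libraries were above both WT libraries. KPNA2, the most abundant of the family in WT cells at 117 CPM per kb, was at 263 and 369.9 CPM in WT cells against 461 and 484 CPM in XRN1-null cells. Its log2 change of 0.58 ± 0.14 (SE) was larger than that of KPNA4 but was not called (edgeR FDR 0.00805), although DESeq2 called it (FDR 5.33e-06), and its WT replicates lay far apart. KPNA6 had a log2 change of 0.28 ± 0.076 (SE) and KPNA3, whose libraries overlapped, a log2 change of -0.053 ± 0.088 (SE), neither called. The adaptors with the larger rises belong to more than 1 subfamily, since KPNA1 and KPNA5 are close relatives of KPNA6, and KPNA4 is a close relative of KPNA3.

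Among the import receptors 3 of 10 mRNAs rose, near the 22.9% of all genes, and 0 fell, against 23.2% of all genes. With the width correction none of the 3 was still called, with IPO9 at 0.23 (edgeR FDR 0.0141), TNPO1 at 0.24 (0.0136) and IPO8 at 0.30 (0.00997). IPO9, a carrier of histones and actin, was at 227 and 233 CPM in WT cells against 380.0 and 366 CPM in XRN1-null cells, a log2 change of 0.70 ± 0.062 (SE) with an edgeR FDR of 6.91e-05. TNPO1, which imports RNA-binding proteins with a proline-tyrosine signal, was at 274 and 284 CPM in WT cells against 410.3 and 411 CPM in XRN1-null cells, a log2 change of 0.56 ± 0.061 (SE) with an edgeR FDR of 0.000172. IPO8, a carrier of SMAD and Argonaute proteins, rose by a log2 change of 0.45 with an edgeR FDR of 0.000985. KPNB1, the partner of the importin alpha adaptors, was the most abundant import receptor per length in WT cells (158 CPM per kb), and at 655 and 752 CPM in WT cells against 811 and 813 CPM in XRN1-null cells its log2 change of 0.21 ± 0.077 (SE) was not called. The closest relative of TNPO1, TNPO2, had a log2 change of -0.089 ± 0.064 (SE), and TNPO3, the carrier of splicing factors, a log2 change of 0.23 ± 0.06 (SE). IPO4, IPO5, IPO7 and IPO11 had log2 changes from -0.017 to 0.27, and IPO11 was just outside the threshold with an edgeR FDR of 0.00593.

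Of the 7 export and two-way receptors, 3 mRNAs rose and 1 fell, against 22.9% and 23.2% of all genes. XPO4, which exports SMAD3 and the initiation factor eIF5A, was at 74.6 and 64.9 CPM in WT cells against 148 and 138 CPM in XRN1-null cells. This was a log2 change of 1.03 ± 0.084 (SE) with an edgeR FDR of 4.72e-05. XPO7 was at 83.9 and 82.6 CPM in WT cells against 118 and 116 CPM in XRN1-null cells and rose by a log2 change of 0.49, and XPO5, the exporter of pre-miRNAs, rose by a log2 change of 0.32 with an edgeR FDR of 0.00456, close to the threshold. With the width correction XPO5 was no longer called (0.18, edgeR FDR 0.0589). XPO6, the exporter of actin and profilin, moved the other way, with 319.8 and 304 CPM in WT cells against 218 and 219 CPM in XRN1-null cells, a log2 change of -0.51 ± 0.063 (SE) and an edgeR FDR of 0.000284. CSE1L, which returns importin alpha to the cytoplasm and was the most abundant of this group per length (144 CPM per kb in WT cells), had a log2 change of 0.095 ± 0.063 (SE). XPO1, the main exporter of proteins with a leucine-rich signal, had a log2 change of 0.29 ± 0.077 (SE) and IPO13, which works in both directions, a log2 change of 0.19 ± 0.063 (SE), neither called. RANBP17, the paralog of XPO7, is described with the genes outside the symbol rule.

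In the Ran cycle 0 of 3 mRNAs rose and 2 fell, against 22.9% and 23.2% of all genes. RAN had the highest WT mRNA level of the 55 genes per deposited width, 372 CPM per kb, though RANBP1 did per length of the reference transcript, and RAN was at 932 and 961 CPM in WT cells against 739.7 and 758 CPM in XRN1-null cells. Both XRN1-null libraries were below both WT libraries, and the change was -0.34 ± 0.059 (SE) with an edgeR FDR of 0.00162. RANBP1, which helps RAN leave the transport receptors after export, was at 578 and 568 CPM in WT cells against 365 and 368 CPM in XRN1-null cells, a log2 change of -0.65 ± 0.06 (SE) with an edgeR FDR of 8.14e-05. RANGAP1, which switches RAN to its GDP form, had a positive log2 change of 0.35 ± 0.09 (SE) that was not called (edgeR FDR 0.0105), although DESeq2 called it (FDR 0.000389). The annotation names 9 pseudogene copies of RAN and 1 of RANBP1, and the exons of RANBP1 overlap those of TRMT2A on the other strand, so reads of these genes could be split or shared.

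The subunits of the mRNA export receptor moved in opposite directions. NXF1, the large subunit that binds mRNA (chr11:62559595-62573774 on GRCh37, minus strand, 21 exons), was at 75.2 and 79.4 CPM in WT cells against 120.4 and 125 CPM in XRN1-null cells, a log2 change of 0.67 ± 0.065 (SE) with an edgeR FDR of 0.000107. NXT1, the small subunit (chr20:23331428-23335408 on GRCh37, plus strand, 2 exons), was at 34.6 and 32.8 CPM in WT cells against 19.9 and 18.8 CPM in XRN1-null cells, a log2 change of -0.80 ± 0.079 (SE) with an edgeR FDR of 0.000109. For both genes the XRN1-null libraries did not overlap the WT libraries. Without a width correction NXT1 had the largest fall of the 55, but with it the log2 change was -0.50 (edgeR FDR 0.00144), and XPO6, NUP62CL, RANBP1, NUP93 and NUP210 fell further. In WT cells NXT1 mRNA was at 30.2 and NXF1 mRNA at 18.6 CPM per kb of deposited width, but per kb of the GENCODE reference transcript NXT1 was at 31.7 and NXF1 at 33.8 CPM, so their order depends on the length used. NUP62CL, which resembles NUP62 and has no role assigned here, also fell, with 17.6 and 19.4 CPM in WT cells against 10.7 and 11.6 CPM in XRN1-null cells (-0.73 ± 0.099 (SE)), and IPO5P1 did not pass the test (0.095 ± 0.092 (SE)).

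**Figure D2:**
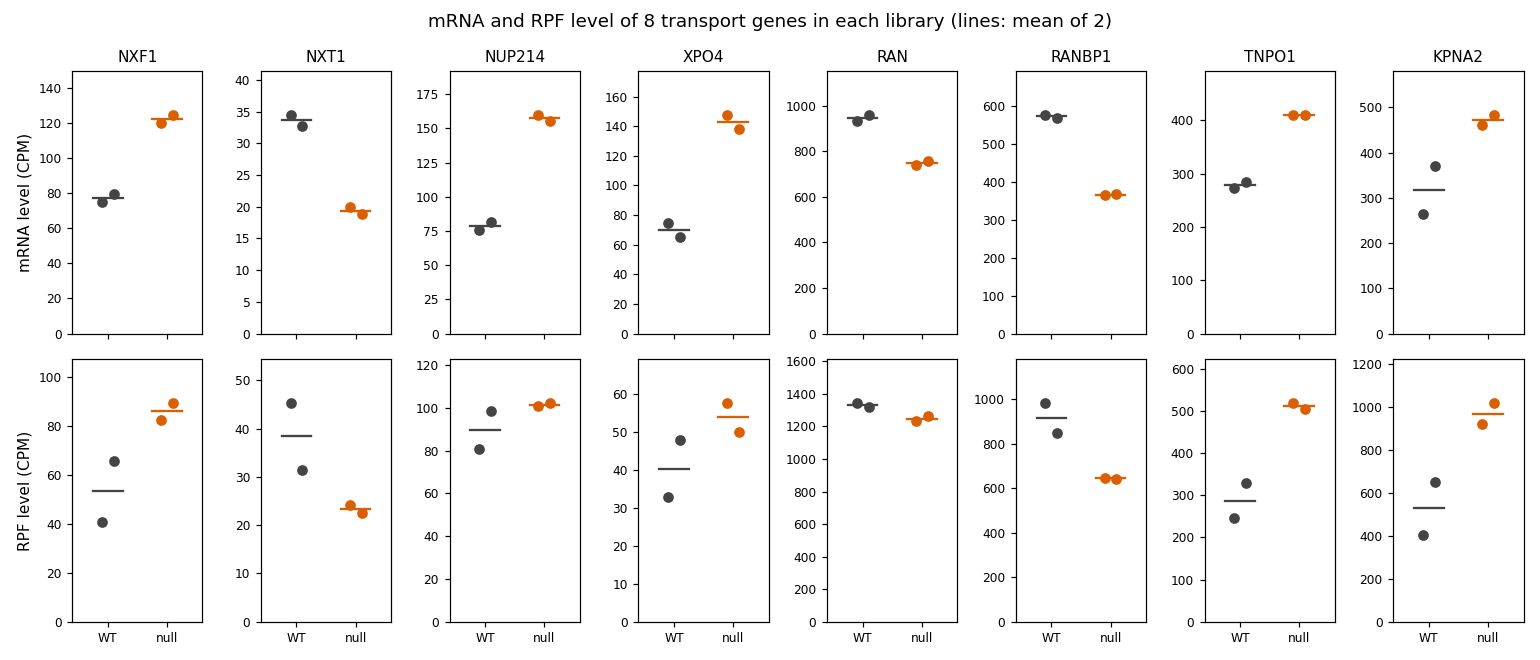
Level of mRNA (top row) and RPF (bottom row) in CPM for 8 genes in each of the 2 WT and 2 XRN1-null libraries per assay, with a line at the mean of the 2 replicates and each axis starting at 0. In both assays the XRN1-null libraries are above WT for NXF1 and below WT for NXT1, though neither gene was called in RPF, and for NUP214 the XRN1-null libraries are far above WT in mRNA but close to the higher WT library in RPF.

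The genes that rose tended to be long and those that fell tended to be short. The median width, the length per gene deposited with the counts, was 6569 nt for the 18 mRNAs that were higher, 4523.5 nt for the 30 not called and 2546 nt for the 7 that were lower. Over all genes the corresponding medians were 4485, 3171 and 2348.5 nt, and the 55 genes had a median width of 4633 nt against 3225 nt for all genes. When all genes were split by width into 3 classes of nearly equal size, 10.8% of the shortest class (111 to 2413 nt) were higher and 36.2% lower, against 37.1% and 12.6% of the longest class (4235 to 24674 nt). The 55 genes had 9 members in the shortest class, of which 2 rose and 3 fell, 13 in the middle class, of which 2 rose and 3 fell, and 33 in the longest class, of which 14 rose and 1 fell. Across the 55 genes, log2 width and mRNA change had a Pearson r of 0.52 and a Spearman rho of 0.48, against 0.32 and 0.35 across all 10105 genes, as a description over genes that share the same 4 libraries. KPNA5 and NUP85 rose with widths of 2158 and 2363 nt, and XPO6 fell with a width of 4625 nt, so not every gene followed this order, although KPNA5 is a short exception by its deposited width alone. Among the called genes the deposited width was over 1.5 times from the length of the reference transcript in 5, with reference lengths of 11288 nt for KPNA5, 8234 nt for NUP93 (width 3716 nt), 8068 nt for NUP155 (4747 nt), 2290 nt for NXF1 (4147 nt) and 1221 nt for RANBP1 (1991 nt).

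A width correction fitted per library over all genes kept the call of 8 of the 18 rises and of all 7 falls, and called 9 falls in all, in a fit where 18.9% of all genes were higher and 18.3% lower. The median change over the 55 genes was then 0.15, and the sign of all 25 called changes was kept. XPO4, NUP214, KPNA5, TPR, NUP85 and NXF1 were among the rises still called, with corrected log2 changes of 0.65, 0.73, 1.03, 0.50, 0.85 and 0.61. The 10 rises no longer called were RANBP2 (0.28), NUP98 (0.29), NUP160, NUP155, KPNA1, KPNA4, IPO9, TNPO1, IPO8 and XPO5.

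The RPF comparison asks whether ribosome occupancy differed in the same genes. At an FDR below 0.005, edgeR's quasi-likelihood test called 0 of the 55 genes higher, where 0.633% of all genes were called, and 0 lower, where 1.14% of all genes were called. DESeq2 called 2 higher (KPNA2 and TNPO1), where 0.97% of all genes were, and 1 lower (NUP210), where 1.19% were. At an unadjusted p below 0.05, 24 of the 55 genes (43.6%) differed, against 33% of all genes. The median log2 RPF change over the 55 genes was 0.22 (0.11 with the width correction), against -0.00 over all genes, and the median standard error was 0.15 in RPF against 0.072 in mRNA. At an FDR below 0.05, 7 genes were higher (12.7%, where 7.07% of all genes were) and 4 were lower (7.27%, where 8.38% were). These 11 genes are named here after their values were seen, because none passed the stricter threshold.

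The 7 genes with higher RPF at an FDR below 0.05 were 3 importin alpha adaptors and TNPO1, RANBP2, TPR and NXF1. TNPO1 was at 245 and 328 CPM in WT cells against 519 and 505 CPM in XRN1-null cells, a log2 change of 0.83 ± 0.16 (SE) with an edgeR FDR of 0.00654. KPNA2, which edgeR did not call in mRNA, was at 404 and 652 CPM in WT cells against 919 and 1018 CPM in XRN1-null cells, a log2 change of 0.87 ± 0.19 (SE) with an edgeR FDR of 0.0123. In both genes each XRN1-null library was above each WT library, but the WT replicates were far apart. KPNA5 had a log2 RPF change of 0.91 ± 0.17 (SE) and KPNA4 a log2 change of 0.73 ± 0.15 (SE), close to or above their mRNA log2 changes of 0.95 and 0.53. RANBP2 and TPR had log2 RPF changes of 0.69 ± 0.15 (SE) and 0.71 ± 0.17 (SE), and with the width correction neither passed an FDR of 0.05 (0.44 with edgeR FDR 0.0559, and 0.49 with edgeR FDR 0.0528). Without WT Ribo-Seq replicate 1 the RPF change was 0.57 for KPNA2 and 0.47 for TPR. The other 3 importin alpha genes did not pass an FDR of 0.05, with log2 RPF changes of 0.47 ± 0.16 (SE) for KPNA6, 0.42 ± 0.16 (SE) for KPNA3 and 0.38 ± 0.16 (SE) for KPNA1 (edgeR FDR 0.0611, 0.101 and 0.126). With a library left out these changes ranged from 0.30 to 0.72, from 0.23 to 0.72 and from 0.20 to 0.68. Positive RPF changes were found in all 6 importin alpha genes, in 38 of the 55 genes (69.1%) and in 49.6% of all genes.

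The 4 genes with lower RPF at an FDR below 0.05 were XPO6, NUP210, RANBP1 and NXT1. XPO6 was at 109 and 113 CPM in WT cells against 67.5 and 68.7 CPM in XRN1-null cells, a log2 change of -0.71 ± 0.14 (SE) with an edgeR FDR of 0.00713. NUP210, the membrane glycoprotein that was not called in mRNA, was at 308 and 264 CPM in WT cells against 176 and 178 CPM in XRN1-null cells, a log2 change of -0.69 ± 0.14 (SE) with an edgeR FDR of 0.0102. RANBP1 was at 985 and 849 CPM in WT cells against 649 and 644 CPM in XRN1-null cells, with the groups apart and a log2 change of -0.50 ± 0.13 (SE), and did not pass an FDR of 0.05 with the width correction (-0.38, edgeR FDR 0.0608). The subunits of the mRNA export receptor had RPF changes of opposite sign, with NXF1 at 40.6 and 65.7 CPM in WT cells against 82.4 and 89.3 CPM in XRN1-null cells (0.63 ± 0.19 (SE), edgeR FDR 0.0423) and NXT1 at 45.3 and 31.5 CPM in WT cells against 24.1 and 22.5 CPM in XRN1-null cells (-0.65 ± 0.20 (SE), edgeR FDR 0.0425). Neither passed an FDR of 0.05 in DESeq2 (0.076 and 0.139), and with the width correction NXT1 was at -0.41 (edgeR FDR 0.121). Without WT Ribo-Seq replicate 1 the RPF change was 0.39 for NXF1 and -0.42 for NXT1, and without WT Ribo-Seq replicate 2 it was 1.09 for NXF1 and -0.94 for NXT1. RAN mRNA fell, but its RPF level was 1345 and 1322 CPM in WT cells against 1231 and 1265 CPM in XRN1-null cells, a log2 change of -0.095 ± 0.12 (SE) with a 95% interval of -0.42 to 0.23.

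Replicates of WT cells differed in this group of genes more than those of XRN1-null cells. The median log2 ratio of WT replicate 2 over WT replicate 1 across the 55 genes was 0.29 in Ribo-Seq, with 45 of 55 higher in replicate 2, and 0.10 in RNA-Seq, with 42 of 55 higher, against -0.00 in both assays over all genes. The same ratio between XRN1-null replicates was 0.01 in both assays. Without WT Ribo-Seq replicate 2, 25 of the 55 genes were called higher in RPF, where 12.7% of all genes were, and 4 lower, where 10.8% were, and the median RPF change was 0.40. Without WT Ribo-Seq replicate 1, 7 were called higher, where 5.82% of all genes were, and 4 lower, where 7% were, so the falls stood near the share of all genes, and the median RPF change was 0.10. The lone WT library is then assumed to vary like the XRN1-null libraries. WT Ribo-Seq replicate 1 was also the shallowest library, with 1921641 counts, and the part of its depth in this difference was not tested.

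RPF changes mostly had the sign of the mRNA change. Of the 18 genes with higher mRNA, 16 had a positive RPF change and 2 a negative one, and of the 7 with lower mRNA all 7 had a negative one. Across the 55 genes the mRNA and RPF changes had a Pearson r of 0.74 and a Spearman rho of 0.67, against 0.67 and 0.69 across all 10105 genes, as a description. The exceptions were IPO9 and XPO7. IPO9 mRNA rose by a log2 change of 0.70, but its RPF level was 190.1 and 209 CPM in WT cells against 192 and 201 CPM in XRN1-null cells, a log2 change of -0.027 ± 0.14 (SE). XPO7 mRNA rose by a log2 change of 0.49, but its RPF level was 65.1 and 52.1 CPM in WT cells against 44.9 and 52.8 CPM in XRN1-null cells, and the groups overlapped with a log2 change of -0.24 ± 0.16 (SE).

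**Figure D3:**
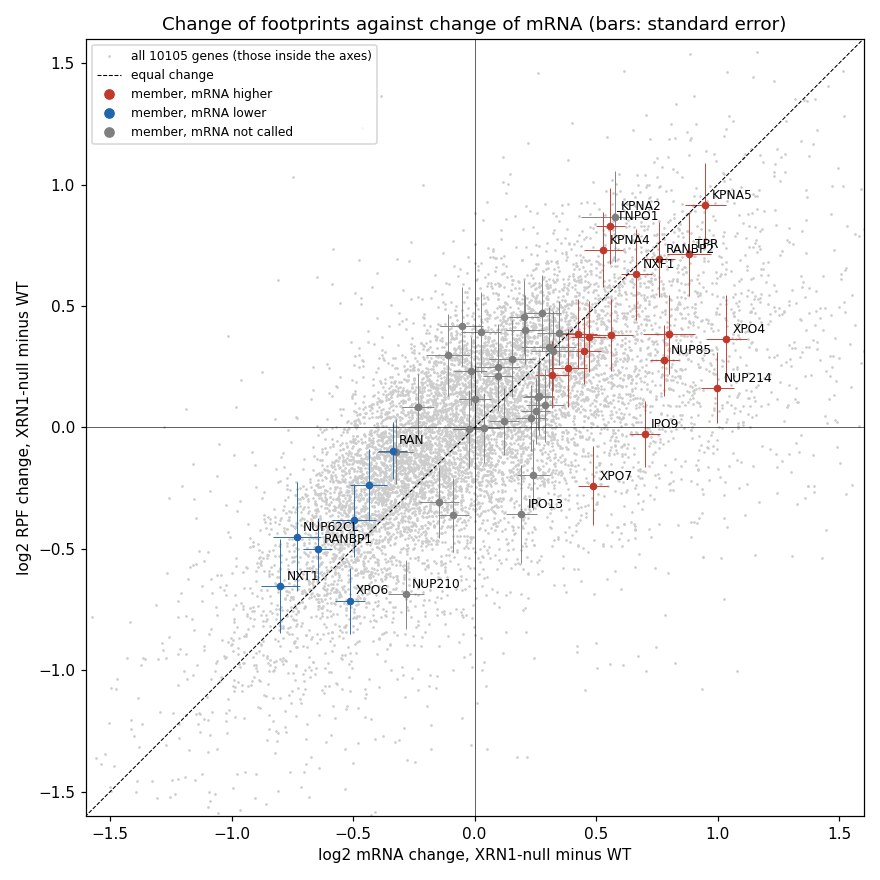
Log2 RPF change (y axis) against log2 mRNA change (x axis) between XRN1-null and WT cells, with standard errors as bars, for the 55 genes coloured by mRNA call over all genes within the axes in light grey. NUP214, IPO9, XPO7 and XPO4 lie well below the dashed line of equal change, whereas KPNA2 and TNPO1 lie above it.

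Translational efficiency (TE), the RPF level relative to the mRNA level, was tested in a single fit to all 8 libraries, as the term by which the genotype effect differs between the assays. At an FDR below 0.005, 0 of the 55 genes were called higher, where 0.0495% of all genes were, and 0 lower, where 1.78% of all genes were, in edgeR's quasi-likelihood test. DESeq2 called 2 lower (NUP214 and IPO9), near its share of 3.19% of all genes, and at an unadjusted p below 0.05 in edgeR 10 of the 55 genes (18.2%) differed, against 23.3% of all genes. At an FDR below 0.05, 0 were higher, where 1.02% of all genes were, and 3 were lower (5.45%, where 6.46% of all genes were). The median log2 TE change was -0.045, against 0.0081 over all genes.

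The 3 genes with lower TE at an FDR below 0.05, again named after their values were seen, all had higher mRNA. NUP214 had a log2 TE (log2 of RPF CPM over mRNA CPM) of 0.086 and 0.27 in WT cells against -0.66 and -0.60 in XRN1-null cells, a log2 change of -0.84 ± 0.15 (SE) with an edgeR FDR of 0.0054. IPO9 had a log2 TE of -0.25 and -0.16 in WT cells against -0.98 and -0.87 in XRN1-null cells, a log2 change of -0.73 ± 0.14 (SE) with an edgeR FDR of 0.00718. XPO7 had a log2 TE of -0.36 and -0.66 in WT cells against -1.38 and -1.13 in XRN1-null cells, a log2 change of -0.72 ± 0.16 (SE) with an edgeR FDR of 0.0195. In each of the 3 both XRN1-null values were below both WT values. Exons of NUP214 and IPO9 overlap those of genes on the other strand, and the RNA-Seq kit does not mark strand. Their mRNA counts may therefore hold reads of these genes. XPO4, whose mRNA rose, had a log2 TE change of -0.68 ± 0.20 (SE) (edgeR FDR 0.0639), and its WT values were far apart. NUP85 had a log2 TE change of -0.51 ± 0.14 (SE) with an edgeR FDR of 0.051, and its XRN1-null values were below both WT values. With a library left out the TE change ranged from -0.85 to -0.30 for XPO4 and from -0.61 to -0.34 for NUP85.

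Negative TE changes went with higher mRNA among these genes and in the whole table alike. Of the 18 genes with higher mRNA, 16 had a negative TE change, with a median of -0.14, and of the 7 with lower mRNA 6 had a positive one, with a median of 0.16. Over all genes with higher mRNA the median TE change was -0.39 and 84.7% of the changes were negative, and over those with lower mRNA the median was 0.15 and 27.8% were negative. The mRNA level enters both measures, so their signs are not independent. The exceptions among the genes with higher mRNA were TNPO1, with a log2 TE change of 0.27 ± 0.17 (SE), and KPNA4, with 0.20 ± 0.17 (SE), and among those with lower mRNA XPO6, with -0.20 ± 0.14 (SE). For NXF1 and NXT1 the TE changes were -0.053 ± 0.20 (SE) and 0.16 ± 0.21 (SE), and the 95% intervals were -0.62 to 0.51 and -0.42 to 0.73. The largest positive TE change was that of KPNA3, 0.46 ± 0.19 (SE), which was not called.

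**Figure D4:**
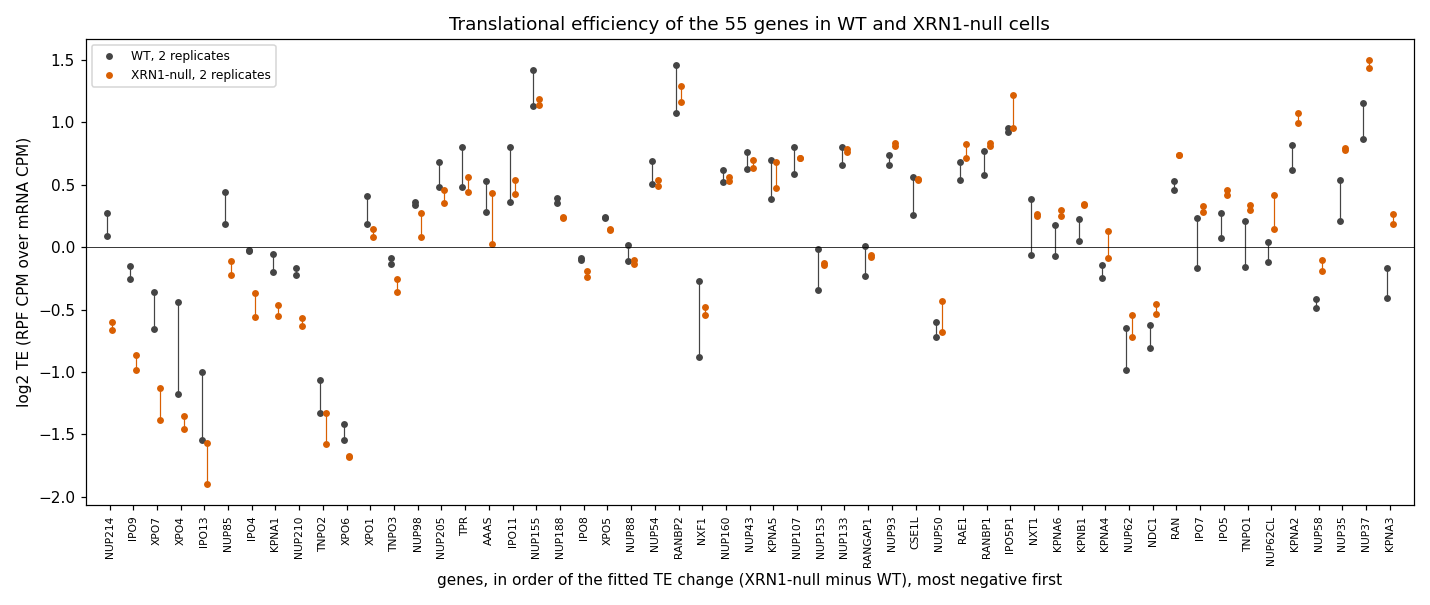
Log2 TE (log2 of RPF CPM over mRNA CPM, y axis) of the 55 genes in the 2 WT replicates (grey) and the 2 XRN1-null replicates (orange), joined by lines, in the order of the fitted TE change. NUP214, IPO9 and XPO7 stand at the left with both XRN1-null values below both WT values, and KPNA3 at the right with both above.

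In WT cells these genes were more abundant per length than most of the table. The median WT mRNA level was 29.3 CPM per kb of width, against 15.0 for all genes, and 46 of the 55 were above the median of all genes. For TE per length (log2 of RPF CPM per kb of coding sequence over mRNA CPM per kb of width) the 54 genes with a coding length had a median of 0.98 in WT cells, against 0.83 over all genes, with 32 of the 54 above the median of all genes. RAN (2.47), NUP43 (2.46), KPNA4 (2.33) and KPNA6 (2.25) were at the top of this order. XPO6 (-1.03) and IPO13 (-0.79) were at the bottom, followed by TNPO2 (-0.18) and XPO7 (0.066). Without the length correction the median log2 TE in WT cells was 0.18, against -0.29 over all genes, and the ratio of the assays is relative in either form. With reference transcript lengths in place of the deposited widths, chosen after seeing the data, the median TE per length was 1.03, KPNA5 (3.34) led the order, and XPO6 (-1.05) and IPO13 (-0.85) were still at the bottom.

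Other nuclear transport genes that the symbol rule missed were taken from fixed lists, and their counts stand against 22.9% of all genes with higher and 23.2% with lower mRNA. Of 9 further nucleoporins and pore helicases in the table, 0 mRNAs were higher and 2 were lower. POM121C, AHCTF1 and POM121 had log2 changes of 0.30, 0.28 and 0.28 that were just outside the threshold (edgeR FDR 0.00559, 0.00547 and 0.00572). SEH1L, a Y complex member, went from a mean of 91.5 CPM in WT cells to 58.9 CPM in XRN1-null cells, a log2 change of -0.63 ± 0.061 (SE) with an edgeR FDR of 9.83e-05. DDX19B, a helicase of the cytoplasmic face, changed in log2 by -0.48 ± 0.082 (SE). Of 6 further karyopherins and adaptors, 2 were higher and 2 lower. RANBP17, the paralog of XPO7, had a mean of 15.6 CPM in WT cells against 32.2 CPM in XRN1-null cells, a log2 change of 1.05 ± 0.086 (SE) with an edgeR FDR of 4.87e-05, so both paralogs rose in mRNA. C11orf73, the carrier of heat shock proteins also named HIKESHI, changed in log2 by -0.64 ± 0.065 (SE). Of 4 further genes of the Ran cycle, 0 were higher and 2 lower, and NUTF2, which brings RAN back into the nucleus, had a mean of 214 CPM in WT cells against 112 CPM in XRN1-null cells, a log2 change of -0.94 ± 0.068 (SE) with an edgeR FDR of 2.83e-05. RCC1, which loads RAN with GTP, had a log2 change of -0.32 ± 0.071 (SE) that was just outside the threshold (edgeR FDR 0.00513). Together with RAN and RANBP1, 4 of the 7 Ran cycle genes measured had lower mRNA and 0 had higher mRNA in edgeR, where 23.2% of all genes were lower, and DESeq2 called RANGAP1 higher. In the shortest width class 36.2% of genes were lower. RAN and RANBP1 stayed called with the width correction, but corrected changes of the Ran cycle genes outside the rule are not given here.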

How the data were processed

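HEK293T cells of both genotypes were harvested 24 h after plating. Per the labels and the study's methods, the authors used Bowtie2 to discard rRNA reads and TopHat2 to map the rest to hg19, kept footprints of selected lengths and deposited raw QuasR counts per gene with a width. Genes had been selected by an FPKM limit. The RNA-Seq kit does not mark strand. The deposited comparison tables of the authors (fold changes, p-values and TE from edgeR and RiboDiff) were not used, and 0 columns belonged to other samples.

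The deposited counts were analysed in R 4.3.3 with edgeR 4.0.16, using TMM factors within each assay, quasi-likelihood tests (genotype within an assay, or the interaction of assay and genotype for TE in place of RiboDiff, which was not run) and Benjamini-Hochberg adjustment over all 10105 genes. Genes were called at an FDR below 0.005. Standard errors are the log2 change divided by the square root of F, and 0.5 CPM was added before log2 TE was taken. The 95% intervals used fewer degrees of freedom than the tests, so they are wider than the tests imply. On simulated counts for 10105 genes, 100% of 200 changed genes were recovered for mRNA, 94% of 200 for RPF and 91.5% of 400 for TE, with 1, 0 and 2 false calls.

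Gene positions, GC content and coding length came from GENCODE v44 on GRCh37, to which 9552 of the 10105 genes and all 55 members were matched by symbol, and promoters from RefSeq on GRCh38.p14. The first start listed was used where a gene had several. Of the 55 genes, 20 share exon bases with a gene on the other strand, 11 with a gene on the same strand, and 15 have named pseudogene copies. Among the called mRNA rises, NUP214, NUP98, NUP88, TPR, KPNA1, KPNA4, IPO9, TNPO1 and XPO5 share exon bases with a gene on the other strand. Named were up to 10 called members in each direction, the most abundant of each role per length, all importin alpha genes, and the largest changes of the lists outside the symbol rule. Other members were named to account for each. The members and lists were chosen with earlier results of these data known.

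Alternatives were RLE factors, library totals, DESeq2 1.42.0, a minimum of 10 counts, a replicate block, thinned RNA-Seq counts, an FDR of 0.05 and leaving out each library. Offsets for width and GC (loess, span 0.3), and reference transcript lengths in place of widths, were chosen after seeing the data. Read counts without molecular identifiers are not independent molecules, and the p-values measure the spread of 2 replicates a group.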

Additional observations from a re-analysis of the deposited data

How the results depend on the processing

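Shares in parentheses are of all genes. The 18 rises in mRNA became 32 at an FDR of 0.05 (32.8%), 27 with library totals (26.4%), 26 with DESeq2 (26.6%) and 8 with the width offset (18.9%), and ranged from 11 to 33 when a library was left out, with 32 without WT replicate 1 (31.6%), 33 without WT replicate 2 (33.7%) and 11 without XRN1-null replicate 1 (16.2%). The 7 falls ranged from 3 to 10, with 3 without XRN1-null replicate 1 (11%) or 2 (10.9%). All 25 called mRNA changes kept their sign with the width offset, the GC offset, library totals and each left-out library. The 0 rises in RPF became 2 with library totals (1.32%), 2 with DESeq2 (0.97%), 1 with the width offset (0.881%) and 7 at an FDR of 0.05 (7.07%), and ranged from 0 to 25 with a library left out. The 0 falls in RPF became 1 with DESeq2 (1.19%), 2 with the width offset (1.37%) and 4 at an FDR of 0.05 (8.38%), and ranged from 0 to 4. The 0 falls in TE became 1 with RLE factors (1.92%), 2 with library totals (2.27%), 2 with DESeq2 (3.19%), 1 with the GC offset (1.96%) and 3 at an FDR of 0.05 (6.46%), all near those shares, and ranged from 0 to 2 with a library left out, where the 2 came without WT Ribo-Seq replicate 1 (2.28%). No TE rise was called under any of these settings. The median TE change was -0.16 without WT Ribo-Seq replicate 1 and 0.13 without replicate 2, so its sign depended on the library left out. The causes were not tested.

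The labels share replicate numbers but do not say that they pair libraries, and same-numbered deviations had correlations of 0.19 in mRNA, 0.080 in RPF and 0.077 in TE. With a replicate block, 25 mRNAs were higher (28.3% of all genes), including all 18, and 9 lower (27.8% of all genes), including all 7, and in RPF 7 genes were higher (6.1% of all genes) and 3 lower (6.58% of all genes). With a replicate block by culture, 3 genes were lower in TE, near the 4.3% of all genes. Median standard errors were 0.15 in RPF and 0.17 in TE against 0.072 in mRNA, and the part of depth in this was not tested.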

Other observations

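The TREX and TREX-2 complexes, which package mRNA in the nucleus and hand it to NXF1 and NXT1, had 14 genes in the table. In mRNA 5 of them were higher and 4 lower in XRN1-null cells, where 22.9% of all genes were higher and 23.2% lower, and 0 were called in RPF or TE by edgeR at an FDR below 0.005. DDX39A, a helicase of TREX, had a mean of 94.9 CPM in WT cells against 156 CPM in XRN1-null cells, a log2 change of 0.72 ± 0.068 (SE) with an edgeR FDR of 9.36e-05, and its paralog DDX39B had a change of -0.087 ± 0.063 (SE) that was not called. THOC6 had a mean of 53.3 CPM in WT cells against 28.3 CPM in XRN1-null cells, a change of -0.91 ± 0.067 (SE) with an edgeR FDR of 3.16e-05, while THOC2, the scaffold of the same complex, changed by 0.42 ± 0.074 (SE). MCM3AP, the scaffold of TREX-2, changed by 0.53 ± 0.073 (SE), and its small subunit ENY2 by -0.54 ± 0.078 (SE). ALYREF, the adaptor that contacts NXF1, had a change of -0.20 ± 0.081 (SE) that was not called. Over the 33 transport genes outside the symbol rule, 7 mRNAs were higher and 10 lower, against the same shares of all genes, with a median log2 change of -0.063.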
